A study of Mus musculus with 6 samples.

Results

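Chromatin accessibility after 16 h at 1% O2, a moderate hypoxia, was compared with that at 21% O2 in GL261, a mouse glioma cell line that here stably carried the green fluorescent plasmid pEGFP-N1. The comparison rests on 4 of the 6 ATACseq libraries of the series, the 2 labelled as normoxia at 21% O2 and the 2 labelled as hypoxia at 1% O2, chosen by their labels alone. The other 2 libraries, at <0.1% O2, are given only as context and entered no test here. All 6 came from the same cultured line, with no tumour stroma and no oxygen level between 21% and 1% O2, and the labels do not say whether replicates were separate cultures, so that the p-values measure the spread between libraries, which may be technical. Cells were fixed with formaldehyde at their own oxygen level before nuclei were opened to the transposase.

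ATACseq uses a transposase that cuts and tags DNA where it is not packed away, so fragments pile up into a peak over an open promoter or enhancer. Cells sense a fall in oxygen mainly through the prolyl hydroxylases of the EGLN family, which mark the HIF alpha subunits for destruction by the VHL ubiquitin ligase. When oxygen is short the HIF alpha subunits persist, pair with ARNT and bind a short core sequence beside genes for glycolysis, lactate export, mitochondrial turnover and vessel growth. A peak height in bulk cells does not separate more cells with an open site from a site that is more open in each cell, and these cannot be told apart here.

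The sequences below are those of 6 peaks beside hypoxia genes that were higher at 1% O2 and that carried the letters of the hypoxia response core (ACGTG or GCGTG, on either strand) within 100 bp of a summit. Of the 19 peaks of the hypoxia gene lists that were called higher, 8 held such a core. Each is 65 bases of the forward strand of GRCm38.p6, 5′ to 3′, with the core in capitals as it reads on that strand.
*Slc16a3* promoter, chr11:120950986-120951050: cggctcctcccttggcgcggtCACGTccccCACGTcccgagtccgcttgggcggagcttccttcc
*Egln3* intron, chr12:54192085-54192149: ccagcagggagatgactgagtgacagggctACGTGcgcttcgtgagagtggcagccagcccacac
*Pnrc1* distal, chr4:33261560-33261624: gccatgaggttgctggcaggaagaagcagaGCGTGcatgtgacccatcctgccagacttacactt
*Slc2a1* intron, chr4:119121436-119121500: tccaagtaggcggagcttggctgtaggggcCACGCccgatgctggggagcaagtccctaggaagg
*Ddit4* distal, chr10:59958473-59958537: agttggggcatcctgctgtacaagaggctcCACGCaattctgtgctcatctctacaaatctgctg
*Ankrd37* promoter, chr8:45999968-46000032: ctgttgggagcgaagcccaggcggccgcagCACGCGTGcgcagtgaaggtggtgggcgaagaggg
The *Slc16a3* window holds 2 cores and the *Ankrd37* window holds 2 that overlap. The letters are a match and not a measured binding site, and they are common, since 51.7% of all tested promoter peaks and 24.9% of all other tested peaks held them within 100 bp of the summit, a wider window than the 65 bases printed.

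The 21% O2 libraries held 33006 and 36188 peaks and the 1% O2 libraries 42807 and 41783. Both 1% O2 libraries were deeper, with a mean fragment coverage of the genome of 2.93 and 2.99 against 2.16 and 2.36, so depth and oxygen level cannot be told apart in anything that is not set against the rest of its own library. Pairs of libraries shared, of the bases that either covered, a fraction of 0.752 for the replicates at 21% O2, 0.775 for those at 1% O2 and 0.679 to 0.710 across the levels. Of 12 neural stem, astroglial and glioma markers, 9 had a promoter peak in all 4 libraries, *Sox2*, *Nes*, *Gfap* and *Olig2* among them, *Fabp7* had one in 3, and *Sox9* and *Egfr* had none. None of 7 immune markers had a promoter peak in any library. Of the endothelial, epithelial and neuronal markers, *Krt8* and *Syt1* had one in all 4 libraries and *Pecam1* in 3.

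Whether the same sites were open at both oxygen levels was asked first. Of 38931 consensus peaks, built from stretches of more than 200 bp shared by both replicates of a level, 29384 (75.48%) held such a stretch at 21% and at 1% O2. A total of 29293 had a summit in all 4 libraries and were tested, 13175 of them at promoters (within 2000 bp of a transcription start site) and 16118 elsewhere. Each peak was measured by the whole number of fragments stacked over its highest summit, the summit pileup, and by its fold, a pileup over a local background. In a peak with several summits the highest fold was taken, which can belong to another summit than the pileup. In these peaks the median pileup was 59 and 77 at 21% O2 and 104 and 95 at 1% O2. The values were therefore put on a common scale by quantile normalisation, and a change is a change of height relative to the other peaks of a library. A peak whose raw pileup stayed level at 1% O2 is thus a relative fall. Raw pileups of a rise can stand apart between the levels through depth alone, as those of the median peak do, so rises are read from percentile ranks within each library and from the scaled change.

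At 1% O2, 2367 peaks were higher in summit pileup (8.08% of those tested) and 2317 were lower (7.91%), at an adjusted p under 0.05 in limma and a log2 change of at least 0.6. Calls were more frequent away from promoters, a difference that was not tested. Among the other peaks 1767 rose (11.0%) and 1507 fell (9.35%), whereas among promoter peaks 600 rose (4.55%) and 810 fell (6.15%). With the strongest promoter peak of each of 11790 protein-coding genes, 423 genes rose (3.59%) and 637 fell (5.4%). That balance moved with the scaling, and when libraries were only centred on their medians 319 genes rose and 793 fell.

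By annotation, 11.1% of intronic, 10.7% of intergenic and 13.2% of 3′ UTR peaks rose and 10.2%, 8.8% and 7.89% fell. Peaks that rose started low, with a median pileup of 40 at 21% O2, against 74 for those that fell and 68.5 for all tested peaks. Their median log2 change was 0.80 and that of the peaks that fell -0.77. The middle 90% of all tested peaks lay between -0.71 and 0.74 on the log2 scale.

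Fold gave fewer calls, most of them in the direction of the pileup. By fold 454 peaks were higher (1.55%) and 237 lower (0.809%), of which 78 (0.592%) and 44 (0.334%) were at promoters and 376 (2.33%) and 193 (1.2%) elsewhere. Of the strongest promoter peaks of genes, 39 were higher (0.331%) and 25 lower (0.212%). Both values come from the same fragments and are not independent. Of the 2367 peaks that rose in pileup, 2256 (95.31%) had a fold that moved up and 399 were called higher by fold, and of the 2317 that fell, 2243 (96.81%) had a fold that moved down and 204 were called lower. None of the peaks that rose was called lower by fold, while 5 of those that fell were called higher. The local background stood at 2.39 and 2.36 times the genome coverage at 21% O2 and at 2.09 and 1.96 times at 1% O2, and its part in the difference between the values was not tested.

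**Figure D1:**
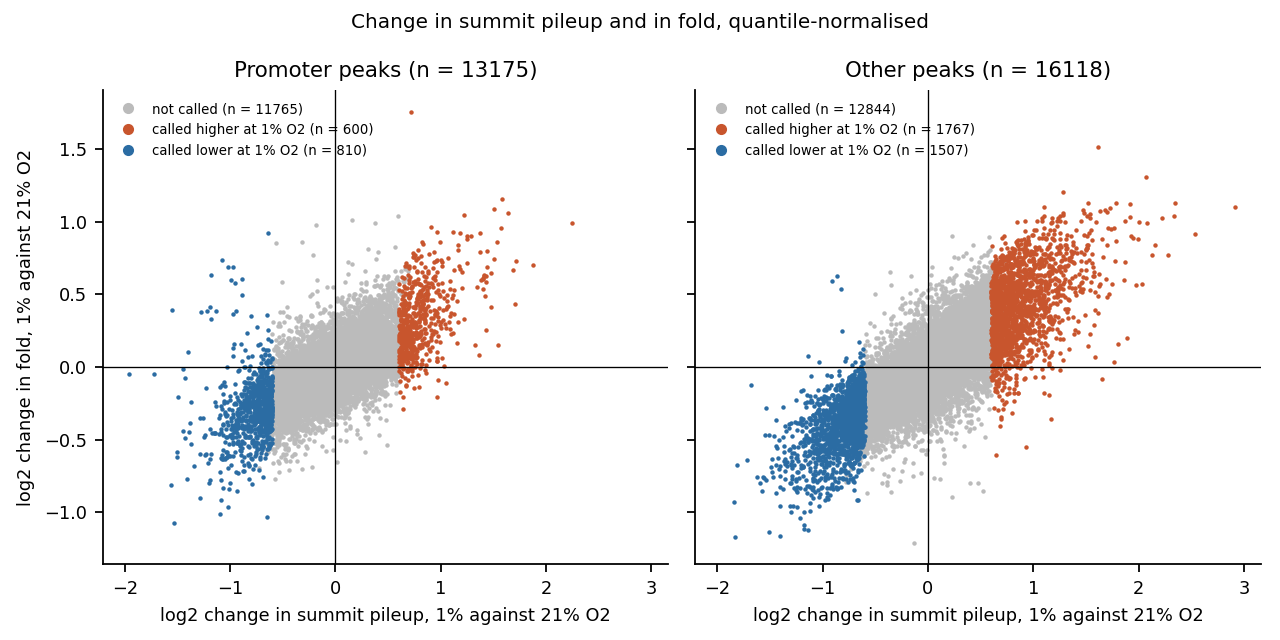
Log2 change in fold (vertical) against log2 change in summit pileup (horizontal), 1% against 21% O2, for the 13175 promoter peaks and the 16118 other peaks tested. Each point is a peak, coloured when called higher (orange) or lower (blue) by pileup. The cloud of other peaks reaches further to the right than that of promoters, and in both panels most called peaks lie in the quadrants where both values move the same way.

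These counts rest on 2 libraries a level. With any 1 library left out limma's standard fit called 0 peaks by pileup, with 7785 to 9727 peaks at an unadjusted p under 0.05, while a robust prior, added after seeing the data, then called 2058 to 2563 higher and 2118 to 2452 lower. A pseudocount of 5 left 60 peaks higher and 10 lower by fold, and without 21% O2 replicate 2 the counts were 930 and 414. By fold, 0 peaks were called by either prior without 1% O2 replicate 1 or without 1% O2 replicate 2 (4127 and 4113 peaks at an unadjusted p under 0.05 in limma's standard fit).

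Promoter peaks as a class were compared with the other peaks in each library. The median quantile-normalised log2 pileup of promoter peaks lay above that of other peaks by 0.95 and 0.95 at 21% O2 and by 0.90 and 0.84 at 1% O2. The difference, -0.081 on the log2 scale, was larger than the gap between replicates, 0.0028 at 21% O2 and 0.058 at 1% O2. An exact two-sided permutation test over the 6 regroupings of the libraries gave p = 0.33, the smallest value that this design can give. The difference was -0.18 with median scaling, -0.11 without 1% O2 replicate 1, -0.052 without 1% O2 replicate 2 and -0.039 in fold.

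The genes of the oxygen-sensing pathway itself were examined first among the gene lists. Of 9 HIF pathway genes with a tested promoter peak, 1 rose and 0 fell, and 8 of the 9 had a change above 0, with a median log2 change of 0.20 against -0.025 for all genes. With median scaling these medians were 0.13 and -0.083, and in fold 0.035 and -0.024. Over all genes 3.59% rose, and 5547 of 11790 had a change above 0. The gene that rose was *Egln3*, a prolyl hydroxylase that is itself a HIF target. Its promoter peak (chr12:54203361-54204167) had 44 and 45 fragments at 21% O2 and 104 and 103 at 1% O2, a log2 change of 0.63 ± 0.17 (SE, n = 2 against 2, adjusted p = 0.0082). Its ranks within the library were 37.2 and 28.0 at 21% O2 and 49.9 and 53.9 at 1% O2. The call is marginal. With a pseudocount of 5 the change was 0.59, without 21% O2 replicate 2 the change was 0.47 with a robust prior (adjusted p = 0.053), and without 1% O2 replicate 2 it was 0.57 (adjusted p = 0.060).

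A second *Egln3* peak, in an intron 11730 bp from the start site and the one whose core is printed above, moved further. It had 31 and 35 fragments at 21% O2 and 136 and 120 at 1% O2, which took it from percentile ranks of 22.6 and 18.6 within the library to 62.5 and 61.1 (log2 change 1.40 ± 0.16, adjusted p = 1.7e-05). The HIF subunit genes did not reach the size of change required. The *Hif1a* promoter had a log2 change of 0.25 (adjusted p = 0.030) and that of its partner *Arnt* 0.20 (adjusted p = 0.14). For *Vhl* the change was 0.19 (adjusted p = 0.26) and for the main oxygen sensor *Egln1* 0.13 (adjusted p = 0.47).

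In the glycolysis list, which holds glucose transporters, glycolytic enzymes and their regulators, 1 of 24 promoters rose and 1 fell, shares of 4.17% each and close to the background of all genes. The median log2 change was 0.067 in pileup, -0.031 with median scaling and -0.044 in fold, by which none was called. The promoter that rose was that of *Pdk1*, a kinase that holds pyruvate out of the mitochondrial citrate cycle. *Pdk1* (chr2:71872748-71873669) had 130 and 195 fragments at 21% O2 and 394 and 319 at 1% O2 (log2 change 0.70 ± 0.096, adjusted p = 6.9e-05), and the 1% O2 libraries ranked it at 96.1 and 94.4 against 82.4 and 85.3. With median scaling its change was 0.59, just under the size required, and its fold change was -0.015 (adjusted p = 0.93). The promoter that fell was that of *Pfkfb3*, an enzyme that makes the allosteric activator of phosphofructokinase, with 152 and 181 fragments at 21% O2 and 158 and 145 at 1% O2. Its raw pileups overlapped between the levels, and the fall of 0.61 on the log2 scale (adjusted p = 0.00084) is one of rank, from 87.4 and 82.9 to 69.1 and 69.8. It was -0.51 without 21% O2 replicate 1 and -0.597 without 1% O2 replicate 1 (robust prior), -0.593 with cyclic loess and -0.586 with a pseudocount of 5, each under the size required.

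Away from promoters, 3 of 23 peaks nearest to glycolysis genes rose (13%) and 1 fell (4.35%), against 11.8% and 8.3% of such peaks of all genes. A peak inside *Hk1*, which encodes a hexokinase, 19787 bp from its start site (chr10:62320285-62321189), went from 123 and 193 fragments to 497 and 413 (log2 change 1.09 ± 0.094, adjusted p = 1.8e-06). The intronic peak of *Slc2a1*, the main glucose transporter gene, had 76 and 95 fragments at 21% O2 and 229 and 221 at 1% O2 (log2 change 0.91 ± 0.12, adjusted p = 3.7e-05). A peak 6778 bp before *Ldha*, the lactate dehydrogenase gene, went from 130 and 176 to 349 and 324 (log2 change 0.69, adjusted p = 4.7e-05). Within the library the *Hk1* peak went from ranks of 80.4 and 84.9 to 98.3 and 97.5, the *Slc2a1* peak from 60.6 and 58.3 to 83.6 and 85.7 and the *Ldha* peak from 82.4 and 82.0 to 94.3 and 94.6. By fold none was called, with log2 changes of -0.068, 0.015 and -0.34.

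The promoters of the same genes moved less. The *Slc2a1* promoter (chr4:119108475-119109352) had 202 and 249 fragments at 21% O2 and 411 and 337 at 1% O2, with a log2 change of 0.27 ± 0.090 (adjusted p = 0.029), under the size required. The *Ldha* promoter had a log2 change of -0.17 (adjusted p = 0.34) and that of *Pgk1*, another glycolytic enzyme gene, -0.080 (adjusted p = 0.66). A peak 7821 bp from the start of *Eno1*, the enolase gene, fell by 0.65 on the log2 scale (adjusted p = 0.011), with raw pileups of 62 and 102 at 21% O2 and 66 and 83 at 1% O2 that overlapped.

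The list of HIF target effectors holds other established HIF targets. Of its 28 promoters 4 rose (14.3%) and 1 fell (3.57%), where 3.59% of all genes rose and 5.4% fell. Of 43 other peaks nearest to these genes 7 rose (16.3%) and 0 fell, and of the 10569 such peaks of all protein-coding genes 1247 rose (11.8%) and 877 fell (8.3%). Neither difference was tested. The list's median log2 change at promoters was 0.089 in pileup, -0.017 with median scaling and -0.059 in fold, by which 2 of the 28 were called higher.

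*Slc16a3*, which encodes the lactate exporter MCT4, had the largest rise of the list. Its promoter peak (chr11:120950682-120951175, 1940 bp from the start site) went from 26 and 47 fragments to 138 and 139, and from ranks of 15.7 and 29.8 to 63.1 and 67.9. The log2 change was 1.44 ± 0.18 (adjusted p = 3.6e-05), and this peak was also called by fold, with a log2 change of 0.69 (adjusted p = 0.040). The summit lay 3 bp from one of the cores in the printed sequence.

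*Selenbp1*, a selenium-binding protein with methanethiol oxidase activity, rose at its start site from 22 and 27 fragments to 84 and 81 (log2 change 1.19 ± 0.19, adjusted p = 0.00021) and was called by fold too. *Ankrd37*, an ankyrin repeat gene known as a direct HIF target, went from 122 and 179 to 371 and 327 (log2 change 0.78 ± 0.092, adjusted p = 2.2e-05), with a core 2 bp from its summit. *P4ha2*, a collagen prolyl hydroxylase subunit, went from 45 and 61 to 134 and 107 (log2 change 0.65 ± 0.15, adjusted p = 0.0039). Within the library *Selenbp1* went from ranks of 9.66 and 9.94 to 40.0 and 42.7, *Ankrd37* from 80.1 and 82.5 to 95.2 and 94.7 and *P4ha2* from 38.1 and 40.0 to 61.8 and 55.8. The *P4ha2* change was 0.55 without 1% O2 replicate 1 (robust prior), under the size required.

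The promoter of *Bhlhe40*, a transcriptional repressor and HIF target, moved against 2 of its distal peaks. At the promoter 184 and 238 fragments at 21% O2 stood against 203 and 153 at 1% O2, which overlapped in raw pileup and gave a fall of 0.71 on the log2 scale (adjusted p = 0.00019). This change was -0.58 without 1% O2 replicate 2 (robust prior), under the size required. A peak 17090 bp downstream of the start site went from 33 and 48 to 130 and 115 (log2 change 1.06 ± 0.16, adjusted p = 0.00014) and was called by fold, with a log2 change of 0.72. A peak at 4852 bp, in the 3′ UTR, went from 99 and 136 to 280 and 249 (log2 change 0.72).

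*Ddit4*, which encodes the mTORC1 inhibitor REDD1, was not called at its promoter (log2 -0.061, adjusted p = 0.53) while 3 of the 6 other peaks within 50 kb rose. At 8430 bp downstream of the start, 87 and 106 fragments became 331 and 243 (log2 change 1.09). At 6748 bp upstream, 52 and 94 became 208 and 161 (log2 change 0.89). At 12972 bp upstream, 150 and 237 became 486 and 412 (log2 change 0.78). Their ranks within the library were 44.2 to 90.5 at 21% O2 and 74.3 to 98.2 at 1% O2, and at each peak both 1% O2 ranks were the higher ones. By fold none was called, and another *Ddit4* peak, at 18104 bp upstream, was called lower by fold (log2 -0.73) with a pileup change of -0.068.

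Single distal peaks rose beside 2 further genes of the list. A peak 13065 bp from *Pnrc1*, a nuclear receptor coregulator, went from 70 and 82 fragments to 224 and 186 (log2 change 0.93). A weak peak 30067 bp from *Rora*, a clock-linked nuclear receptor, went from 15 and 25 to 58 and 49 (log2 change 0.92) and was called by fold. The *Bnip3* promoter, a mitophagy receptor gene and a standard HIF target, had a log2 change of 0.46 (adjusted p = 0.0013), under the size required.

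Among angiogenic and secreted factors, 1 of 10 promoters rose and 1 fell, with a median log2 change of 0.12 in pileup and -0.077 in fold, and of 23 other peaks 1 rose (4.35%) and 4 fell (17.4%). Over all genes 3.59% of promoters rose and 5.4% fell, and 11.8% and 8.3% of other peaks. *Pgf*, which encodes placental growth factor, rose in a peak 1997 bp from its start site, from 22 and 33 fragments to 91 and 81 (log2 change 1.09 ± 0.19, adjusted p = 0.00045). *Fgf2*, a growth factor gene, fell from 133 and 143 fragments to 84 and 66 (chr3:37381243-37381919, a fall of 1.43 on the log2 scale, adjusted p = 8.9e-06). The raw pileup of *Fgf2* was lower in both deeper libraries, and *Pgf* went from ranks of 9.66 and 16.5 to 43.7 and 42.7. *Vegfa*, the main angiogenic HIF target, had 47 and 62 fragments at its promoter (chr17:46031926-46032909) at 21% O2 and 104 and 85 at 1% O2, a log2 change of 0.23 (adjusted p = 0.27) that was not called.

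Away from promoters, a peak 41136 bp before *Loxl4*, a lysyl oxidase gene, rose from 66 and 93 fragments to 220 and 195 (log2 change 0.91). Peaks beside *Hmox1* and *Pdgfb* were among those that fell. The peak 4039 bp before *Hmox1*, the heme oxygenase gene, had the largest of these falls, from 99 and 139 fragments to 79 and 77 (log2 -1.12, adjusted p = 2.9e-05), and it was also called by fold (log2 -0.66). Beside *Pdgfb*, a platelet-derived growth factor gene, a peak at 10754 bp fell by 0.82 on the log2 scale (adjusted p = 0.0087), with raw pileups of 37 and 53 at 21% O2 and 48 and 30 at 1% O2 that overlapped.

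**Figure D2:**
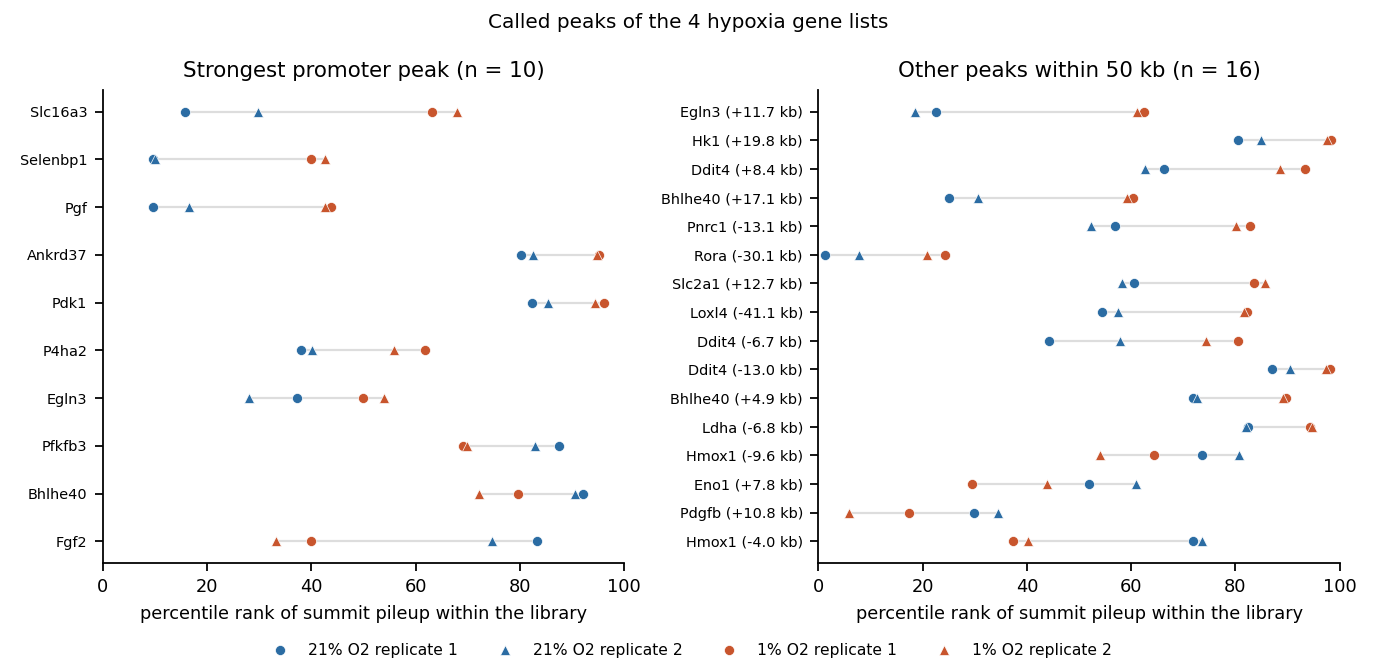
Percentile rank of the summit pileup within each library (horizontal, 0 to 100) for called peaks of the 4 hypoxia gene lists, with the strongest promoter peak of 10 genes on the left and 16 of 17 other peaks within 50 kb of a start site, with their distance from it, on the right. Points are single libraries at 21% O2 (blue) and 1% O2 (orange), circles for replicate 1 and triangles for replicate 2. The 2 colours are apart in every row, and *Slc16a3* and the *Egln3* intron move furthest to the right while *Fgf2* and the *Hmox1* peak at 4039 bp move furthest to the left.

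The remaining lists were described in the same way, and none of their shares was tested. Over all genes 3.59% of promoters rose and 5.4% fell, and of the other peaks 11.8% rose and 8.3% fell. In the sterol synthesis list 3 of 17 promoters rose (17.6%) and 0 fell, with a median log2 change of 0.19 in pileup and -0.059 in fold, by which none was called. They were *Srebf1*, the transcription factor gene of lipid synthesis (73 and 103 fragments against 222 and 191, log2 change 0.76, adjusted p = 0.00018), and the enzyme genes *Fdps* (0.64) and *Lss* (0.62). With median scaling 1 of the 17 was called and the median was 0.078. Of 15 other peaks nearest to these genes 3 rose and 0 fell, one of them inside *Srebf1* (log2 change 0.81) and one 29651 bp from *Scd1*, a fatty acid desaturase gene (log2 change 1.04).

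Genes of the AP-1 family, the FOS and JUN factors that respond to growth signals and stress, had no promoter call among 9 tested, with a median log2 change of 0.19 in pileup, 0.11 with median scaling and -0.17 in fold. Of 18 other peaks nearest to them, 4 rose and 2 fell. Beside *Fos*, a peak at 12238 bp went from 92 and 112 fragments to 273 and 243 (log2 change 0.87) and one 18560 bp upstream from 124 and 176 to 372 and 362 (log2 change 0.85). Beside *Jun*, a peak 30394 bp upstream went from 18 and 16 to 71 and 40 (log2 change 1.08), and another at 28523 bp fell by 0.86 on the log2 scale. Both *Jun* peaks were also called by fold, in the same directions, and both *Fos* peaks were not.

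Of 20 homologous recombination promoters 0 rose and 4 fell (20%, against 5.4% of all genes), with a median log2 change of -0.39. *Brca2*, a recombination mediator, had 63 and 71 fragments at 21% O2 and 45 and 52 at 1% O2 (log2 -1.05, adjusted p = 0.00044). *Fancd2*, of the Fanconi anaemia pathway, fell by 0.99, the nuclease gene *Exo1* by 0.77 and the recombination motor *Rad54l* by 0.60. The raw pileups of *Brca2* and *Fancd2* were apart between the levels, whereas the 2 levels shared a value for *Exo1* and overlapped for *Rad54l*. By fold none of the 20 was called and the median was -0.092.

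Of 27 DNA replication promoters 0 rose and 2 fell (7.41%), with a median log2 change of -0.26 in pileup and 0.011 in fold. Both that fell encode clamp loader subunits. *Rfc4* fell by 1.0 on the log2 scale, from 91 and 128 fragments to 74 and 82, and *Rfc2* by 0.65. Of 30 ribosomal protein promoters 0 rose and 5 fell (16.7%), *Rpl4* (log2 -1.0), *Rpl30* (-0.84), *Rpl11* (-0.66), *Rpl32* (-0.65) and *Rpsa* (-0.64), with a median of -0.39. The median fold change of these 30 promoters was 0.18, opposite in sign to that of the pileup, and none was called by fold. Ribosomal protein genes have many near-identical processed copies in the genome. Fragments over transcribed sequence that match a copy may have been dropped by the authors' mapping quality filter.

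Of 25 splicing regulators 0 rose and 3 fell, *Hnrnpa2b1* (295 and 431 fragments against 329 and 285, log2 -0.69), *Ptbp2* (-0.69) and *Srsf11* (-0.67), with a median of -0.17 in pileup and 0.023 in fold. A list of 12 helicases and partners linked to R-loops had 0 rises and 2 falls, *Ddx3x* (log2 -0.78) and *Ddx21* (-0.68), and a median of -0.26 in pileup and 0.011 in fold. The study chose that list for lower promoter peaks at <0.1% O2 against the same 21% O2 libraries, so it is not independent evidence of a direction. The promoter of *Ddx5*, an RNA helicase of that list (chr11:106788255-106789482), had 250 and 356 fragments at 21% O2 and 351 and 332 at 1% O2, a log2 change of -0.26 ± 0.076 (adjusted p = 0.014) that was under the size required. *Dhx9*, another helicase of the list (chr1:153486887-153488039), had 115 and 137 against 154 and 142 (log2 -0.24, adjusted p = 0.13). The raw pileups of *Ddx5* overlapped between the levels and those of *Dhx9* were higher at 1% O2, and by fold the log2 changes were 0.036 and 0.17.

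In the respiratory chain list 1 of 27 promoters rose (*Ndufv1*, log2 change 0.65) and 1 fell (*Ndufa1*, -0.69), both subunits of complex I. For the unfolded protein response 0 of 16 rose and 1 fell, that of the pseudokinase gene *Trib3* (log2 -0.64). In the p53 target list 1 of 12 rose, that of *Bbc3*, which encodes the cell death protein PUMA (54 and 86 fragments against 176 and 131, log2 change 0.64), and it was not called with median scaling. In the interferon and MHC list 1 of 15 rose, the class I gene *H2-K1* (log2 change 0.62), with a median of 0.25. None of 13 circadian clock promoters was called, with a median log2 change of 0.19 in pileup and -0.037 in fold, and of 12 other peaks 2 rose and 2 fell. Both rises were beside *Nr1d1*, the gene of the clock repressor REV-ERB alpha. A peak 11968 bp from its start went from 43 and 52 fragments to 180 and 155 (log2 change 1.29 ± 0.14, adjusted p = 1.1e-05), and one 8167 bp upstream had a log2 change of 0.61. The falls were beside the clock factor genes *Nfil3* (log2 -0.63) and *Arntl* (log2 -0.69).

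Of 11 glial and glioma identity promoters 0 rose and 1 fell (9.09%), and of 27 other peaks 1 rose (3.7%) and 5 fell (18.5%). The promoter that fell was that of *Vim*, an intermediate filament gene, from 290 and 448 fragments to 299 and 284 (log2 -0.78, adjusted p = 5.4e-06), and a peak 9566 bp from it fell from 114 and 169 to 90 and 73 (log2 -1.29). The promoter pileups of *Vim* overlapped and those of its distal peak did not. A peak 11558 bp from *Sox10*, a glial transcription factor gene, fell from 138 and 202 to 119 and 105 (log2 -1.07) and was called by fold. *Nes* had 2 distal falls (log2 -0.78 and -0.62).

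Of 16 matrix and motility promoters 0 rose and 3 fell, those of *Cdh2* (log2 -0.82), which encodes N-cadherin, *Zeb2* (-0.64) and *Itgb1* (-0.63), which encodes the integrin beta 1 chain. The list symbols *Ctgf* and *Cyr61* stand in the annotation as *Ccn2* and *Ccn1* and are not in this count, and both of those promoters fell. Among 35 other peaks of the list 4 rose and 5 fell. An intronic *Itgb1* peak fell from 58 and 70 fragments to 37 and 40 (log2 -1.30, adjusted p = 8.4e-05), while a peak 7237 bp before *Col1a1*, a collagen gene, rose from 70 and 70 to 194 and 175 (log2 change 0.89).

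Several of these counts moved with the settings. With a pseudocount of 5, 3 homologous recombination, 1 DNA replication, 4 ribosomal protein and 0 respiratory chain promoters fell and no interferon and MHC promoter rose. With a GC trend subtracted 3 DNA replication, 2 respiratory chain and 1 interferon and MHC promoters fell and 2 sterol synthesis promoters rose. With cyclic loess 3 homologous recombination and 2 respiratory chain promoters fell, and with median scaling 3 DNA replication and 6 ribosomal protein promoters.

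**Figure D3:**
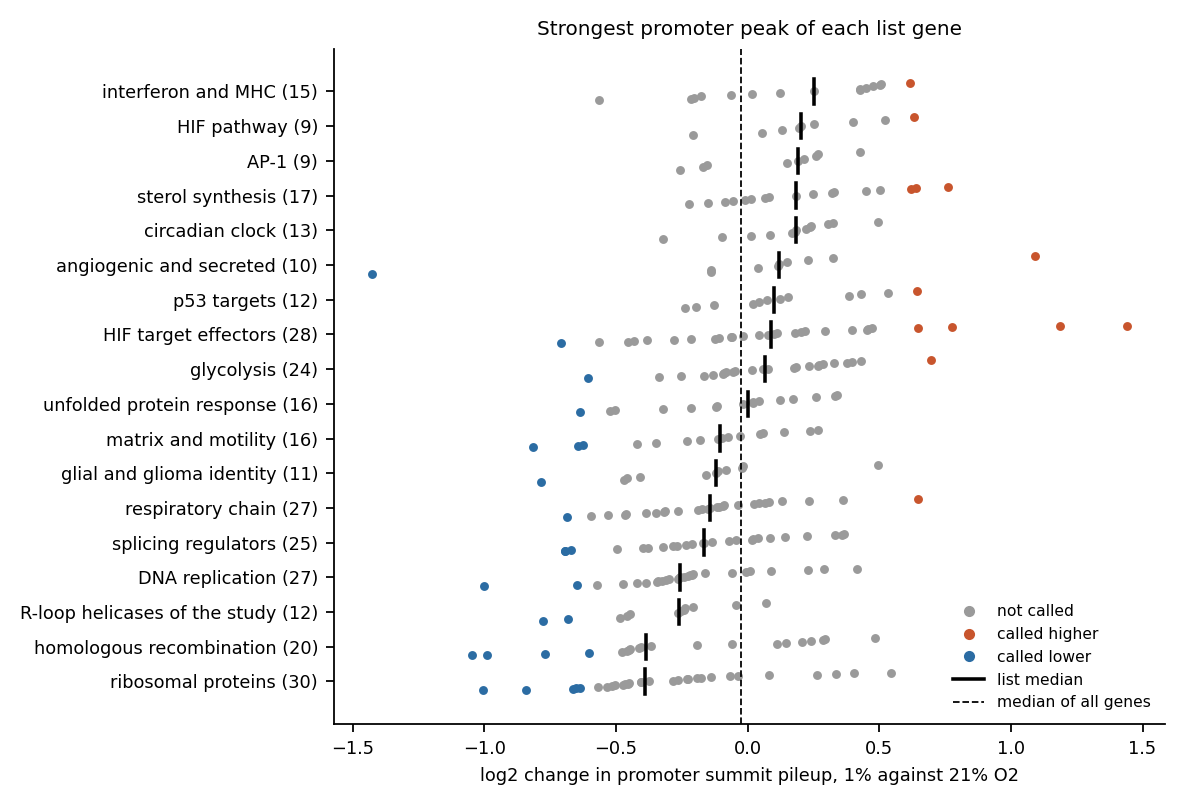
Log2 change in summit pileup (horizontal), 1% against 21% O2, at the strongest promoter peak of each gene in the 18 lists, with the number of genes tested in brackets. Each point is a gene, orange when called higher, blue when called lower and grey otherwise, the short black bars are list medians and the dashed line is the median of all genes at -0.025. Medians run from 0.25 for interferon and MHC genes to -0.39 for ribosomal proteins, and most genes of every list are grey.

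The letters around the summits were compared between the peaks that rose and those that fell, for 13 motifs on both strands. The motif shares are a description, and no difference between them was tested. Away from promoters the widest contrast in percentage points was that of the AP-1 site (TGANTCA). There it lay within 100 bp of the summit in 28.8% of all tested, in 45.2% of those that rose and in 14.8% of those that fell. It was in 34.5% of the stretches gained at 1% O2 and in 13.8% of those lost. At promoters it was in 7.04% of all tested peaks, in 20.5% of those that rose and in 5.43% of those that fell. Read the other way, 17.2% of other peaks with the site rose against 8.44% of those without it. With median scaling, cyclic loess, a GC trend subtracted or a pseudocount of 5 the share among the other peaks that rose was 44.6% to 46.7%.

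The sequences of 2 of the 5 largest rises away from promoters are printed for their AP-1 letters, in capitals, and were chosen after their values were seen.
*Map10* distal, chr8:125639845-125639909: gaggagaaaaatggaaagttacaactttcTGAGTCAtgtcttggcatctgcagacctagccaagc
*U90926* distal, chr5:92220455-92220519: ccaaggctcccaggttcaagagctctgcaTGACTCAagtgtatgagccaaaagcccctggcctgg
The peak at *Map10* had 17 and 21 fragments at 21% O2 and 142 and 127 at 1% O2, and that at *U90926* had 29 and 38 against 244 and 224.

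The hypoxia response core differed far less. Among the other peaks it was in 24.9% of all tested, 27.1% of those that rose and 19.5% of those that fell, and at promoters in 51.7%, 46.5% and 45.6%. It was in 21.4% of gained and 18.3% of lost stretches away from promoters. The E-box CACGTG, which contains the core, was in 6.94% of tested promoter peaks and in 6.17% of those that rose.

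Other letters were more frequent in the peaks that fell. The TEAD site (GGAATG) was in 25.1% of the other peaks that fell, against 15.6% of all tested and 11.4% of those that rose, and the SOX/TCF letters (ACAAAG) were in 32.6%, 26.4% and 21.8%. At promoters the ETS site (CCGGAAG) was in 17.0% of those that fell, 12.2% of all tested and 3.0% of those that rose, while the CCAAT box bound by NF-Y was in 18.5%, 29.9% and 34.7%. The median GC content was 52.8% over all tested peaks, 51.9% in those that rose and 48.6% in those that fell, and its part in the motif shares was examined only through the GC trend above, under which the TEAD share in falling peaks was 25.8% and the ETS share in falling promoters 18.4%.

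**Figure D4:**
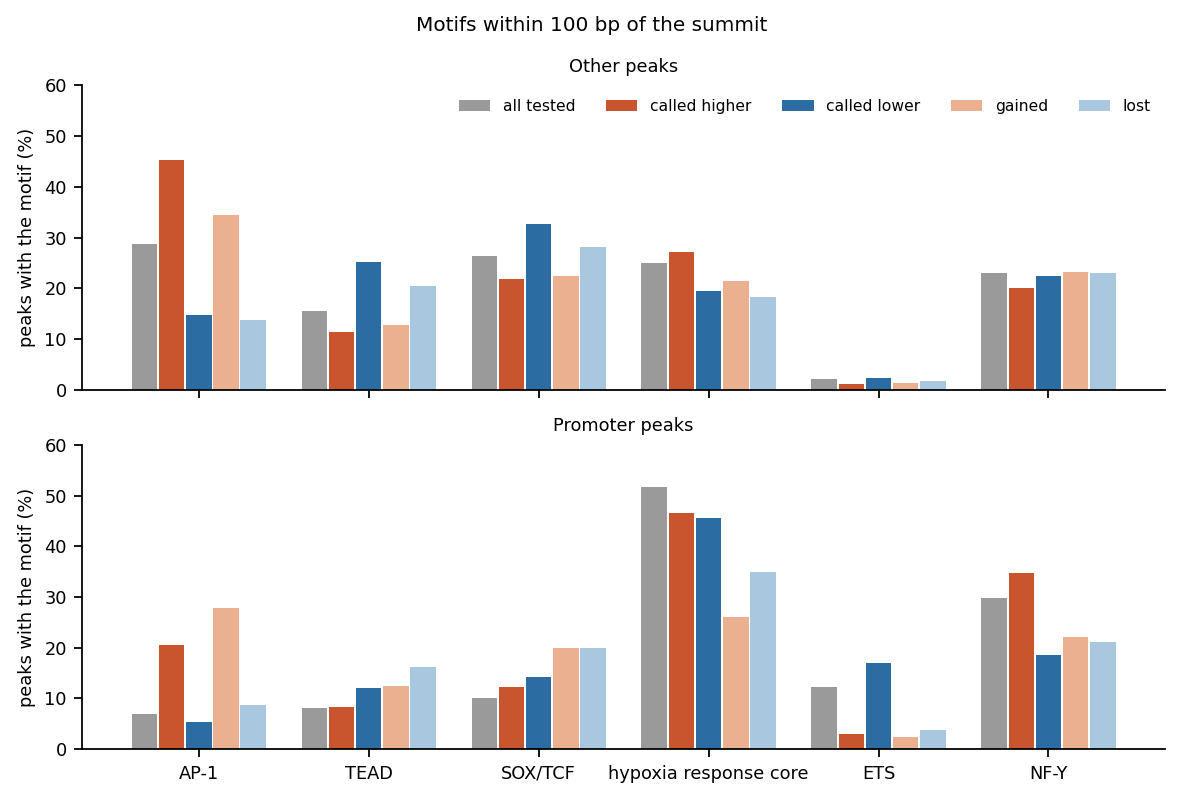
Share of peaks (vertical, percent) that hold the letters of a motif within 100 bp of the summit, for other peaks (top) and promoter peaks (bottom), with bars for all tested peaks (grey), called higher (orange), called lower (blue), gained (light orange) and lost (light blue). The bar for AP-1 in peaks called higher stands at 45.2% away from promoters and 20.5% at promoters, against 28.8% and 7.04% of all tested peaks.

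The largest single changes were then taken by rule, from called peaks whose fold moved the same way and whose gene is protein-coding. The largest rise of all lay in an intron of *Ahdc1*, which encodes an AT-hook protein (chr4:133024917-133025704), with 18 and 23 fragments at 21% O2 and 213 and 219 at 1% O2. Its rank went from 4.16 and 5.79 to 81.2 and 85.4, the log2 change was 2.92 ± 0.16 (adjusted p = 5.5e-08), and the <0.1% O2 libraries had 141 and 142 fragments there. An intronic peak of *Arhgef10*, a guanine nucleotide exchange factor gene, went from 22 and 39 to 234 and 194 (log2 change 2.35). These were weak peaks in normoxia that stood among the taller ones at 1% O2. The peaks of *Map10* and *U90926* printed above had log2 changes of 2.34 and 2.28, and one 9072 bp before *Akr1b8*, an aldo-keto reductase gene, went from 20 and 31 to 166 and 152 (log2 change 2.16). All 5 were also called by fold, with log2 changes of 0.77 to 1.13.

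At promoters the largest rise by this rule was that of *Ak1*, the adenylate kinase that interconverts adenine nucleotides (chr2:32628481-32629478), from 22 and 27 fragments to 137 and 123 (log2 change 1.88 ± 0.17, adjusted p = 2.4e-06). Its covered width was 273 and 345 bp at 21% O2. In both 1% O2 libraries it was 998 bp, the full length of the consensus peak and so the most that this measure can give. *Ampd3*, which encodes an AMP deaminase and so also acts on adenine nucleotides, rose from 18 and 17 fragments to 91 and 64 (log2 change 1.57). *Slc9a3r2*, a scaffold of membrane transporters, rose from 14 and 18 to 73 and 74 (log2 change 1.71) and *Prelp*, a matrix proteoglycan gene, from 22 and 36 to 117 and 121 (log2 change 1.53). These 4 and the orphan receptor gene *Mrgprf* (45 and 45 against 197 and 174, log2 change 1.5) were also called by fold.

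Not called by fold were the ubiquitin ligase gene *Rnf182* (21 and 39 fragments against 149 and 121, log2 change 1.71), the transporter gene *Slc45a3* (30 and 27 against 140 and 130, log2 change 1.69) and the peak shared by *Il17rb*, an interleukin receptor gene, and *Chdh* (36 and 50 against 189 and 168, log2 change 1.54). At each of the 8 promoters that rose both 1% O2 ranks lay above both 21% O2 ranks, with *Rnf182* going from 8.2 and 22.6 to 66.6 and 61.5 and *Slc45a3* from 21.3 and 9.94 to 63.8 and 64.9. The <0.1% O2 libraries, deeper than those at 21% O2, had 48 to 180 fragments at the 8 promoters.

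The falls were smaller and set in taller peaks. A promoter peak shared by the replication-dependent histone genes *Hist2h3c1* and *Hist2h2aa1* fell from 137 and 181 fragments to 82 and 72 (log2 -1.56, adjusted p = 1.1e-06) and was called by fold. The peak of *Hist1h4k*, another histone gene, fell from 114 and 169 to 85 and 63 (log2 -1.45). Histone genes are a family of near-identical copies. Fragments there that match several copies may have been dropped by the authors' mapping quality filter, so both values are uncertain. The promoter of *Grcc10* (chr6:124740128-124741606) fell from 344 and 539 to 210 and 215 (log2 -1.5 ± 0.087, adjusted p = 5.5e-08). That peak also covers the start sites of *Ptpn6* and of *Rnu7*, the small nuclear RNA that takes part in histone transcript processing, and cannot be given to one of them.

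*Gcn1l1*, an activator of the amino acid sensor kinase GCN2, fell from 68 and 72 fragments to 37 and 40 (log2 -1.43). *Gabpb1*, which encodes a subunit of the ETS factor GABP, fell from 85 and 106 to 59 and 48 (log2 -1.39). *Alkbh1*, a demethylase gene that shares its peak with *Slirp*, fell from 66 and 98 to 45 and 46 (log2 -1.38), and *Dpm1*, a mannosyl transferase gene, from 67 and 90 to 41 and 48 (log2 -1.38). Of the 8 promoters with the largest falls by this rule, *Fgf2* among them, all but *Hist2h3c1* were not called by fold, with log2 changes of -0.62 at *Grcc10* to -0.079 at *Gcn1l1*. The rule itself required a fold that moved the same way. Over all tested promoter peaks the lowest pileup change was -1.96, at a peak outside the rule. At each of the 8 the raw pileup was lower in both deeper 1% O2 libraries than in both 21% O2 libraries, without any scaling. At *Gcn1l1*, *Gabpb1*, *Alkbh1* and *Dpm1* it was lower again at <0.1% O2, at 18 to 38 fragments. At the other 4 the <0.1% O2 libraries were not both below the 1% O2 libraries, with 92 and 77 fragments at *Hist2h3c1*, 94 and 72 at *Hist1h4k*, 110 and 73 at *Fgf2* and 232 and 200 at *Grcc10*.

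Away from promoters the largest falls were beside *Lpar6*, a lysophosphatidic acid receptor gene, and *Mat2a*, which encodes the enzyme that makes S-adenosylmethionine. Their sequences are printed with the letters of a searched motif nearest to the summit in capitals, those of RUNX at *Lpar6* and those of the hypoxia response core at *Mat2a*, so that the core stood within a peak that fell. The core also lay within 100 bp of the *Lpar6* summit.
*Lpar6* distal, chr14:73234731-73234795: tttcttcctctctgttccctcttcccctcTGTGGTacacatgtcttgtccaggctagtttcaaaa
*Mat2a* distal, chr6:72431551-72431615: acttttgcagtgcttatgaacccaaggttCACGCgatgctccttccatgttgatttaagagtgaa
The *Lpar6* peak, 3098 bp before the start site and in an intron of an overlapping gene, fell from 70 and 81 fragments to 32 and 29 (log2 -1.85 ± 0.18, adjusted p = 5.2e-06) and the *Mat2a* peak from 51 and 62 to 20 and 26 (log2 -1.81 ± 0.21, adjusted p = 1.9e-05), both called by fold.

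Peaks beside *Stard5*, a sterol carrier gene (62 and 97 against 35 and 34, log2 -1.72), *Rack1*, a ribosome-bound scaffold gene (42 and 51 against 20 and 21, log2 -1.68), and *Nxt2*, an mRNA export gene (41 and 63 against 25 and 23, log2 -1.62), followed. The groups were apart in all 5. The *Rack1* peak had a fold change of -0.13 (adjusted p = 0.70) and was not called by fold. At <0.1% O2 the peaks differed among themselves, with 119 and 77 fragments at *Lpar6*, 73 and 62 at *Stard5* and 71 and 46 at *Nxt2*. There were 28 and 24 at *Mat2a* and 17 and 0 at *Rack1*, where 0 stands for no listed summit. The 2 hypoxia levels share the 21% O2 libraries as their control and were not tested against each other.

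**Figure D5:**
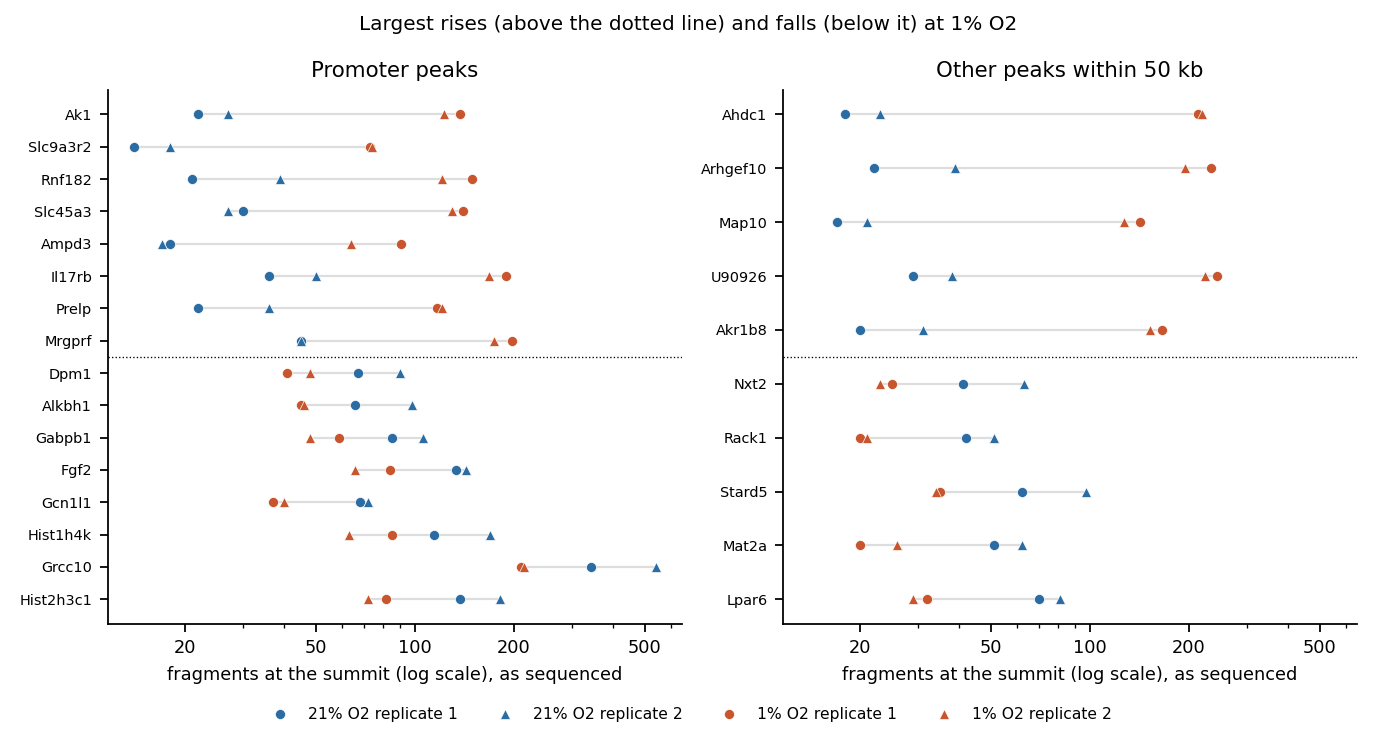
Fragments at the summit (horizontal, log scale, as sequenced) in each library at the 16 promoter peaks and 10 other peaks with the largest changes by rule, rises above the dotted line and falls below it. Points are single libraries at 21% O2 (blue) and 1% O2 (orange), circles for replicate 1 and triangles for replicate 2. The rises cover a wider range than the falls, as at *Ahdc1* from 18 and 23 to 213 and 219. Both 1% O2 libraries are deeper, so a shift to the right includes depth.

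The genes with the most called distal peaks in each direction, 5 and 5, were taken by rule, so their high counts follow from the choice. Over all protein-coding genes 11.8% of such peaks rose and 8.3% fell, and no gene was tested for a joint movement. Of the peaks nearest to *Irs2*, the insulin receptor substrate gene, 5 of 6 fell, with log2 changes of -0.74 to -0.60 for those called, and its promoter had -0.26 (adjusted p = 0.046). Of those nearest to *Ppm1h*, a phosphatase gene, 5 of 8 fell, the tallest from 515 and 738 fragments to 613 and 539 (log2 -0.61), and its promoter fell by 0.69 on the log2 scale. The raw pileups of that tallest *Ppm1h* peak overlapped. On chromosome X, all 4 peaks before *Mageb1*, of a germline antigen family with closely related copies, fell, with a median of -1.15. Of 8 peaks nearest to *Sgms1*, a sphingomyelin synthase gene, 4 fell, the largest from 43 and 58 to 28 and 32 (log2 -1.29). None of these genes had a distal peak called higher.

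The matricellular genes *Ccn1* and *Ccn2*, both known targets of the YAP and TEAD factors, differed in their distal peaks. At *Ccn1* the promoter fell by 1.23 on the log2 scale (adjusted p = 2.7e-06) and 4 of 7 other peaks fell, the largest of them from 124 and 179 fragments to 117 and 121 (log2 -0.81). At *Ccn2* the promoter fell by 0.83 (adjusted p = 0.00049), while of 6 other peaks 3 rose and 1 fell. The one that fell, 21594 bp before the start, went from 54 and 59 to 39 and 38 (log2 -1.12) and was called by fold, and one that rose, at 38919 bp, went from 43 and 38 to 121 and 107 (log2 change 0.92). Over the 7 *Ccn1* peaks the median fold change was 0.17, opposite in sign to that of the pileup. At the largest of the called *Ccn1* falls the fold also moved up (log2 0.25, not called), while at the other called falls it moved down (-0.32, -0.19 and -0.22).

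Picked by the same rule for the most distal rises were, beside *Ddit4* and *Ccn2*, the genes *Coro2b*, an actin regulator (3 of 5 peaks), *Atp6v0a4*, a proton pump subunit (3 of 4), and *Galnt15*, a glycosyltransferase (3 of 3). The largest was a peak 23160 bp before *Coro2b*, from 49 and 65 fragments to 258 and 236 (log2 change 1.62 ± 0.12, adjusted p = 6.2e-07). At *Galnt15* a peak 40843 bp upstream went from 14 and 26 to 87 and 74 (log2 change 1.59). Within the library they went from ranks of 41.7 and 42.8 to 87.5 and 87.7 and from 0.69 and 8.89 to 41.6 and 38.4. Neither gene had a distal peak called lower.

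Presence and absence in the lists were counted apart from height. Stretches found in both 1% O2 libraries and in no 21% O2 library numbered 4348 (11.5% of the 37910 stretches of 1% O2), and those found in both 21% O2 libraries and in no 1% O2 library numbered 414 (1.35% of 30746). With the same number of top peaks from every library, 1982 stretches were gained and 1675 lost. With pileups scaled to the coverage of the shallowest library, which kept 98.79% to 100% of the peaks, 4283 were gained and 431 lost. The source of the imbalance was not tested. Without 21% O2 replicate 2, 1% O2 replicate 1 or 1% O2 replicate 2, 7105, 6963 and 7806 were gained, since fewer libraries then have to share or lack a peak, and 762 to 1715 were lost without any 1 library.

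Gained stretches were small and mostly away from promoters. Their median pileup was 33 and their median width 295 bp, 639 lay at promoters and 3709 elsewhere, and 2336 (53.7%) overlapped a peak in both <0.1% O2 libraries. Of the lost stretches 80 lay at promoters and 334 elsewhere, with a median pileup of 23, and 88 (21.3%) were present in both <0.1% O2 libraries. Since a caller compares a site with its surroundings, a stretch beside a strong peak can drop off a list while still well covered. Among stretches with a summit in both libraries, the local background was over 5 times the genome coverage at 288 of 4157 gained (6.93%) and 45 of 375 lost (12%), and at promoters at 94 of 583 (16.1%) and 21 of 68 (30.9%).

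The promoter stretches with the highest pileups were of that kind. The gained ones were at *Myc*, the growth regulator gene (chr15:61983373-61983623, 202 and 198 fragments at 1% O2), *Tle2*, a corepressor gene (chr10:81573017-81573385, 215 and 167), and *Iqcn* (chr8:70702599-70703065, 196 and 184). Their folds were only 3.78 to 5.40, over backgrounds of 30.9 to 52.7 fragments. The lost ones were at *Kmt2e*, a chromatin regulator gene (chr5:23435341-23435575, 113 and 154 at 21% O2), *Ptbp1*, a splicing regulator gene (chr10:79852102-79852516, 91 and 135), and *Dnaic2*, a dynein chain gene (chr11:114728606-114729293, 96 and 128), with folds of 2.50 to 2.78. Absence from the other level's lists does not show that these sites were closed there.

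Gained stretches outnumbered lost ones over the whole genome, so their number near single genes or lists is given as a description. *Slc2a1* had 3, of which the tallest, 2798 bp before the start site, held 150 and 121 fragments at 1% O2 and 117 and 110 at <0.1% O2. *Ddit4* had 2, one of them 2740 bp from its start with 176 and 170. At *Pkm*, the pyruvate kinase gene, a stretch 2754 bp upstream was gained, with 176 and 158, and one 3269 bp into the gene was lost, with 64 and 87 at 21% O2, although the <0.1% O2 libraries had 137 and 123 there. *Kdm3a*, a histone demethylase gene and HIF target, and *P4ha1* each gained 2, between 29 and 63 fragments. The AP-1 family list gained 6 stretches and lost 1, with 72 and 65 fragments at *Maff* and 35 and 28 at the *Fosl1* promoter.

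Width was compared last. Over tested peaks the median number of bases covered was 702 and 719 bp at 21% O2 and 752 and 747 bp at 1% O2, so that both deeper libraries covered more of these peaks. Over all listed peaks of a library the order was the other way, with median widths of 686 and 672 bp at 21% O2 and 642 and 629 bp at 1% O2. Covered bases were counted inside the bounds of a consensus peak, which are those of the stretches shared by both replicates of a level. Where 1 level set the bounds, both of its libraries could reach the full length and show no spread. The spread between replicates is then understated, so the counts that follow are not a sound test of width. After quantile normalisation 773 peaks were wider at 1% O2 (2.64%) and 686 narrower (2.34%), at an adjusted p under 0.05 in limma with no minimum change. Without normalisation the split was 1813 and 584. No peak was called without 1% O2 replicate 1 or without 1% O2 replicate 2, with 5333 and 4735 peaks at an unadjusted p under 0.05 in limma, and 5015 and 5829 were called wider without 21% O2 replicate 1 or 2. Of the peaks that rose in pileup 1782 (75.29%) were wider and of those that fell 1792 (77.34%) narrower in direction.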

How the data were processed

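The authors aligned paired reads to mm10 using Bowtie2 2.2.5 and kept only properly paired reads of high mapping quality. They ran MACS2 2.1.1.2 on every library separately at a q of 0.001 and removed blacklisted peaks, without pooling replicates. Each deposited list gives a fold (a ratio over local background), a -log10 p-value, a -log10 q-value and a summit offset per peak. Read counts per peak, on which the study ran its own test, were not used here.

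From the authors' fold and p-value the whole-number summit pileup and background were recovered for 100% of peaks in the 4 libraries (tolerance 0.001 in -log10 p), and the smallest background was read as genome coverage, 2.16 to 2.99. Consensus peaks with a summit in all 4 libraries were fitted with limma 3.58.1 (R 4.3.3, trend) on quantile-normalised log2 values with no pseudocount, with Benjamini-Hochberg adjustment over 29293 peaks. The code was tested on simulated data. Start sites came from GENCODE M21 and sequences from GRCm38.p6. All peaks lay within its chromosome lengths.

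Named were called promoter peaks of protein-coding genes whose fold moved the same way (8 largest rises, 8 falls), other peaks within 50 kb (5 and 5), the 3 highest gained and 3 highest lost promoter stretches, the 5 genes with most called distal peaks in each direction, up to 12 called hypoxia list members, and *Slc2a1*, *Vegfa*, *Ddx5* and *Dhx9*. Other list members are given as examples of their counts, and not every called list peak is reported here. The members, the 18 lists (a 25-gene matrix list matched 23 symbols) and the 13 motifs were chosen with earlier results of these data known. Alternatives were other scalings, a pseudocount of 5, a GC trend, a pileup of at least 20, stricter peaks (-log10 q of at least 5), any overlap, ranks, a replicate block, each library left out and, chosen after seeing the data, a robust prior. Same-numbered replicates did not deviate together (correlation -0.027 in pileup), so numbers were not taken as pairs. Peaks, sequences and figures were handled in Python 3.11.15 (pandas 2.3.3, pysam 0.24.0, matplotlib 3.10.9).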

Additional observations from a re-analysis of the deposited data

How the results depend on the processing

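Counts by pileup stayed within 1.5 times in 13 of 18 alternatives in each direction, 5 of them with a robust prior chosen after seeing the data, and the exceptions were calls by rank (4735 higher, 4909 lower) and limma's standard prior with 1 library left out, which called 0 whichever library it was. In those fits 1 residual degree of freedom was left, the lone library of a level was assumed to vary like the other level, and the prior degrees of freedom fell from 14.2 to 1.85 to 2.12. With a robust prior they gave 2058 to 2563 higher and 2118 to 2452 lower. By fold, leaving out a library gave 0 to 930 higher and 0 to 414 lower, with a robust prior at most 930 and 412, a pseudocount of 5 gave 60 and 10, median scaling gave 356 lower, and ranks gave 4854 and 5409. By width, leaving out a library gave 0 to 5829 wider and 0 to 1654 narrower (with a robust prior 4961 and 5748 wider and 1045 and 1483 narrower without 21% O2 replicate 1 and 2, and 0 without either 1% O2 library), no normalization gave 1813 wider and ranks 2899 and 2659. With equal list lengths 1982 stretches were gained and 1675 lost, and without any 1 library 5325 to 7806 and 762 to 1715. Among promoters less other peaks the difference was -0.181 to -0.039 in 11 alternatives. The replicate block gave 367 lower and 668 higher by fold, 0 wider and 0 narrower (5624 at an unadjusted p under 0.05 in limma), and 2396 higher and 2356 lower by pileup, but the numbers share only a label (correlations -0.027, -0.061 and -0.003). None of the 39 named peaks run under the alternatives changed direction. The distal peaks of the genes with most calls and the named gained and lost stretches were not run singly. By pileup, higher calls no longer outnumbered lower ones with median scaling (2235 and 2608), by rank or, with a robust prior, without 1% O2 replicate 1 (2228 and 2303) or 2 (2058 and 2118), and by fold they did not by rank. With median scaling the list medians of glycolysis (0.067 to -0.031), HIF target effectors (0.089 to -0.017) and the unfolded protein response (0.00054 to -0.083) changed sign. Of 39 named peaks 35 were called, and all 35 lost the call with the standard prior in fits without any 1 library. Stricter peaks and any overlap were not run for named peaks, whose bounds change. Scaling to the coverage of the shallowest library gave 4283 gained and 431 lost.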

Other observations

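Relative pileup at 1% O2 also varied between chromosomes. On chromosome X, 14.2% of 667 tested peaks fell and 1.65% rose, with a median log2 change of -0.19, against 7.91%, 8.08% and -0.0067 over all tested peaks. Chromosome 13 leaned the same way, with 13.0% of 1092 peaks lower and 4.58% higher (median -0.14), and chromosome 3 had 11.3% lower and 5.61% higher (median -0.081). Chromosome 11 leaned the other way, with 12.8% of 2225 peaks higher and 4.22% lower (median 0.14).

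The signs for X, 13 and 11 were kept with median scaling (-0.21, -0.15 and 0.098), cyclic loess (-0.18, -0.13 and 0.14) and a GC trend subtracted (-0.18, -0.12 and 0.13). By fold the medians were -0.067 for X, -0.058 for 13 and 0.023 for 11. Peaks of one chromosome are not independent, these chromosomes were picked after their values were seen, and no test was made.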
